A study of Mus musculus with 4 samples.

Results

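The clustered replication-dependent histone genes supply most of the H1, H2A, H2B, H3 and H4 protein that packs newly made DNA. They were taken as every protein-coding gene of the GENCODE M21 annotation whose symbol begins with Hist1h, Hist2h, Hist3h or Hist4, and 67 of the 54838 counted gene identifiers met that rule. Their levels were read in RNA sequencing libraries from E14 mouse embryonic stem cells (E14Tg2a.4, from strain 129/Ola). The wild-type group was the unmodified line, with 2 libraries. The knock-in group, also with 2 libraries, was the line MLC460 derived from it, in which CRISPR/Cas9 placed monomeric enhanced green fluorescent protein (mEGFP) at the N-terminus of the endogenous p300 protein, an acetyltransferase that modifies histones and acts as a transcriptional coactivator. Both groups grew on gelatin in 15% serum with 1000 U/ml leukemia inhibitory factor and gave Trizol-extracted RNA, of which 1 ug was made into libraries with Illumina's TruSeq RNA chemistry. Whether polyadenylated RNA was selected is not in the labels, and MLC460 is 1 line, so the tag and anything else that differs between the 2 lines cannot be told apart.

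These genes work unlike most protein-coding genes. They have no introns in their usual form, are switched on as cells enter S phase, and their mRNAs end just past a short stem-loop in place of a poly(A) tail. The stem-loop is bound by the protein encoded by Slbp, while the protein encoded by Npat gathers at the gene clusters and activates them. A few members can also make a longer, polyadenylated mRNA that reads past the stem-loop. Embryonic stem cells divide quickly and spend much of their cycle in S phase, and library methods that rely on poly(A) tails capture little of the stem-loop form.

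By class there were 6 H1 genes, 18 H2A, 18 H2B, 12 H3 and 13 H4 genes. On build GRCm38, 54 lay on chromosome 13 in 3 blocks, between 21715763 and 21837530 (18 genes), 22035164 and 22043676 (5 genes), and 23531050 and 23934851 (31 genes). A further 10 lay on chromosome 3 between 96219865 and 96270132, 2 on chromosome 11 and 1 on chromosome 6. The symbol rule also matched 3 pseudogenes, which were left out.

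The 3′ ends of the members were inspected first. The histone stem-loop motif, with the letters in capitals below but any base at the 2 positions after its opening GG and before its closing CC, was sought on the sense strand in the 150 bases after the stop codon of annotated transcripts. Of the 52 members with at least 16 annotated bases there, 35 held it (67.3%), and only 1 of 21018 other protein-coding genes did (0.00476%). The motif began 24 to 58 bases after the stop codon, with a median of 31. The following stem-loops, each with 7 bases on either side and with the motif in capitals, are shown because they give the form each class carries and the members on which the levels below turn. They were read from the GENCODE M21 transcripts, 5′ to 3′ and written as DNA, and the coordinates are those of the gene on GRCm38.
Hist1h1c (chr13:23738808-23740367, plus strand): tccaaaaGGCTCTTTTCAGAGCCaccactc
Hist1h2ae (chr13:23570517-23571220, minus strand): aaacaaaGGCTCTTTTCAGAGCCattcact
Hist1h2bj (chr13:22043214-22043676, plus strand): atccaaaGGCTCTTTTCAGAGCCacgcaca
Hist1h3a (chr13:23761853-23762386, minus strand): aaccaaaGGCTCTTTTCAGAGCCacacacg
Hist1h4h (chr13:23531050-23531519, plus strand): aaccaaaGGCCCTTTTCAGGGCCgcccaca
Hist1h4b (chr13:23757013-23757409, plus strand): tacaaaaGGTCCTTTTCAGGACCactcact

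The loop and the stem were the same in all 26 matching members of the H1, H2A, H2B and H3 classes (3, 10, 8 and 5 genes). The 9 matching H4 genes used other stem letters: 7 had the stem of Hist1h4h and 2 that of Hist1h4b. In both H4 forms the letters on the left and right arms remain complementary. Another 10 members differed from the motif at 1 of its fixed letters and 1 member at 2 of them. In the next 4 sequences the capitals mark the nearest match instead, and the genes are shown because they are among the most abundant members of their classes.
Hist1h2bk (chr13:22035870-22036345, plus strand): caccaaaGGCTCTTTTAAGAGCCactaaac
Hist1h3e (chr13:23561534-23562369, minus strand): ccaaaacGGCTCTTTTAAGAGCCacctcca
Hist1h3g (chr13:23535422-23535951, plus strand): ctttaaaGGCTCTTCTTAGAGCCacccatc
Hist1h4i (chr13:22040636-22041362, minus strand): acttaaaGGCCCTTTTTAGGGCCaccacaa

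The remaining 6 members with an annotated 3′ end differed at more than 3 fixed letters in the annotated stretch. The most abundant H2B gene, Hist1h2bc, was one of them. Its annotated 3′ untranslated region runs for 742 bases, and no such letters lie in the window searched. Its transcript is annotated as spliced, with 1156 exon bases between 23684199 and 23692908. The window may therefore not hold the bases that follow the stop codon in the genome, which were not searched. For 15 members the annotation stops at or near the stop codon, so nothing could be read there. The annotation ran more than 100 bases past the stem-loop in 17 members, Hist1h1c and Hist1h2ae among them, and 11 members had a poly(A) signal (AATAAA) after it.

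All members together took few of the counts. The 4 libraries held 18946731 to 26553998 unstranded counts in genes, and the members held 1607 and 1493 of these in the wild-type libraries and 1362 and 960 in the knock-in libraries. As unscaled CPM (counts relative to all gene counts of the library) this was 60.5 (95% exact binomial interval 57.6 to 63.6) and 68.5 (65.1 to 72.1) in wild-type and 53.9 (51.1 to 56.8) and 50.7 (47.5 to 54.0) in knock-in libraries. These intervals, and all others on counts, cover counting error only. Of 11 genes of the replication-independent variants, most of which are known to encode polyadenylated mRNAs, 7 stood above the sum of all members on the TMM-scaled CPM used for single genes (a mean of 58.3 CPM) and 4 below it. H2afz, the gene of the variant H2A.Z, had a mean of 1471 CPM, and H3f3b, a gene of the variant H3.3, had 631 CPM. The lowest were H1fx at 6.84, H2afj at 10.1, H1f0 at 34.3 and H2afy2 at 39.1 CPM. Per kilobase of exon, H2afz stood at 828 CPM and H3f3b at 212 CPM, while Hist1h2bc, the highest member in the unstranded counts, stood at 8.59 CPM. Among 6 RNAs that lack a poly(A) tail in their mature form, chosen after the data were seen, Rn7sk had 7 to 21 counts per library and Terc 12 to 19. Rpph1 had 1 count in all, and Rmrp, Rn7s1 and Rn7s2 were at 0. These counts leave out ambiguous and multimapping reads, so a 0 does not cover such reads.

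With detection set at 10 or more unstranded counts in each of the 4 libraries, 20 of 67 members were detected: 2 H1, 1 H2A, 6 H2B, 7 H3 and 4 H4 genes. All 20 lie on chromosome 13. At 1 count or more in each library the number was 44, and at 1 CPM or more it was 12. Counts were concentrated in a few members, with 46.9% of them in the top 5 and 65.3% in the top 10. Hist1h2bc and Hist1h1c alone held 27.2%.

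**Figure D1:**
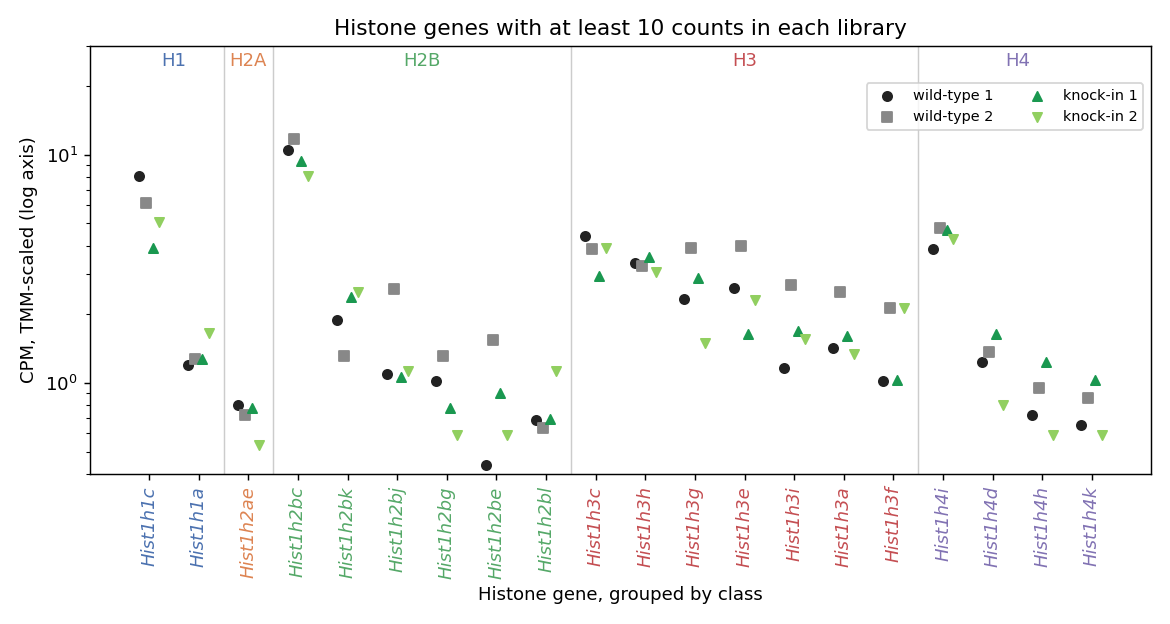
TMM-scaled CPM (log axis) of the 20 histone genes with at least 10 unstranded counts in every library, 1 point per library, with genes grouped by class and labelled in the colour of the class. Hist1h2bc (8.08 to 11.7 CPM) and Hist1h1c (3.90 to 8.09 CPM) stand highest, H2A is represented by Hist1h2ae alone, and the 2 libraries of a line often lie as far apart as the lines do.

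Of the linker histones (H1), which bind DNA between nucleosomes, Hist1h1c led. It had 223 and 136 unstranded counts in the wild-type and 95 and 95 in the knock-in libraries, or 8.09, 6.17, 3.90 and 5.08 CPM. Both knock-in libraries were below both wild-type libraries. Hist1h1a had 1.20, 1.27, 1.27 and 1.66 CPM in the same order, and Hist1h1b had 0.47, 0.27, 0.86 and 0.43 CPM, so that its lines overlapped. Hist1h1d (30, 8, 24 and 10 counts) and Hist1h1e (20, 9, 11 and 5 counts) were under the detection limit in at least 1 library. Hist1h1t, the testis form, had 5 counts in all.

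Among the H2B genes, whose protein pairs with H2A, Hist1h2bc had 288 and 259 counts in wild-type and 230 and 151 in knock-in libraries (10.4, 11.7, 9.43 and 8.08 CPM). The knock-in libraries were both lower. Hist1h2bk had 1.89 and 1.32 CPM in wild-type and 2.38 and 2.51 CPM in knock-in libraries, the opposite order. Hist1h2bj had 2.59 CPM in wild-type 2 and 1.07 to 1.12 CPM in the other 3 libraries, so a single library stood apart. Hist1h2bq, Hist1h2br and Hist2h2bb had no unstranded count.

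H3, the core histone whose tail carries many regulatory marks, had the most detected genes, 7 of 12. Hist1h3h had 3.34, 3.27, 3.57 and 3.05 CPM, and its lines overlapped. Hist1h3c had 4.43, 3.86, 2.95 and 3.90 CPM. Hist1h3g had 2.32 and 3.90 CPM in wild-type and 2.87 and 1.497 CPM in knock-in libraries, and Hist1h3e had 2.61 and 3.99 CPM against 1.64 and 2.30 CPM. For Hist1h3e both knock-in values were below both wild-type values. Per kilobase of exon, Hist1h3h was the highest of the 4, with a mean of 8.04 CPM, followed by Hist1h3c at 6.01 CPM.

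Of the H4 genes, which encode the partner of H3, Hist1h4i was the highest, with 3.85 and 4.76 CPM in wild-type and 4.68 and 4.28 CPM in knock-in libraries. Hist1h4k had 0.65, 0.86, 1.03 and 0.59 CPM, and Hist1h4h had 0.73, 0.95, 1.23 and 0.59 CPM. In both of the latter the 2 knock-in libraries were the highest and the lowest of the 4. Hist1h4b had no unstranded count.

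The H2A genes, whose protein forms a dimer with H2B, were nearly missing from the unstranded counts. They made up 2.84% of the members' counts, against 32.8% for H2B, 31.9% for H3, 16.9% for H4 and 15.5% for H1. Only Hist1h2ae was detected, with 22, 16, 19 and 10 counts. Hist1h2ad, Hist1h2aa, Hist2h2ab, Hist2h2ac, Hist2h2aa1 and Hist2h2aa2 had no count in any library. With Hist1h2bq, Hist1h2br, Hist2h2bb, Hist2h3c1, Hist2h3b and Hist1h4b this made 12 members without a count. A count of 0 allows up to 3 counts, an unscaled 0.113 to 0.158 CPM by library, but that limit holds only for reads the column could assign, not for reads left out as ambiguous or multimapping.

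The annotation has a feature that sets H2A genes apart. In GENCODE M21, 17 of the 18 H2A genes are overlapped on the opposite strand by a short model of type miRNA, 129 to 144 bases long, and no member of another class is. In Hist1h2ac, for example, the model Gm44350 lies at chr13:23683535-23683672. The 17 models had 0 unstranded counts among them. Each lies within its H2A gene, so a read on a model is ambiguous in that column and 0 was fixed in advance. All 18 H2A genes, and 24 of the 67 members, share exon bases with some other gene. The unstranded column leaves out a read that falls on 2 genes, as ambiguous. The 2 strand-aware columns deposited beside it assign a read by its strand, and so keep it where the genes lie on opposite strands. Reads on genes that overlap on the same strand, as Hist2h3c1 and Gm20634 do, stay ambiguous. The strand-aware columns split the members' reads nearly evenly, with 47.7% to 50.3% in the first, so a read's strand carries no information on its gene. The sum of the 2 columns therefore counts a read on 2 opposite-strand genes once for the histone gene and once for its partner.

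In that sum the members had 7341 counts in place of 5422, and 89.5% of the 1919 added counts were in H2A genes. For 46 members the 2 counts were identical. The 13 members that gained more than 10 counts were 11 H2A genes, Hist1h4b and Hist2h3b. Hist1h2af went from 2, 0, 5 and 1 unstranded counts (wild-type 1 and 2, knock-in 1 and 2) to 140, 153, 143 and 184 in the sum. Hist1h2ae went to 132, 116, 144 and 98, and Hist1h2ai from 0, 6, 0 and 1 to 41, 57, 32 and 32. Outside H2A, Hist1h4b, which shares its exon with the antisense gene 4930558J22Rik, went from no count to 32, 41, 52 and 17, and Hist2h3b, overlapped by the antisense gene Gm20628, went from none to 15, 13, 14 and 10. Hist1h2af, Hist1h2ai and Hist2h3b were named after their values were seen. The summed reads cannot be divided between a histone gene and its antisense partner.

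**Figure D2:**
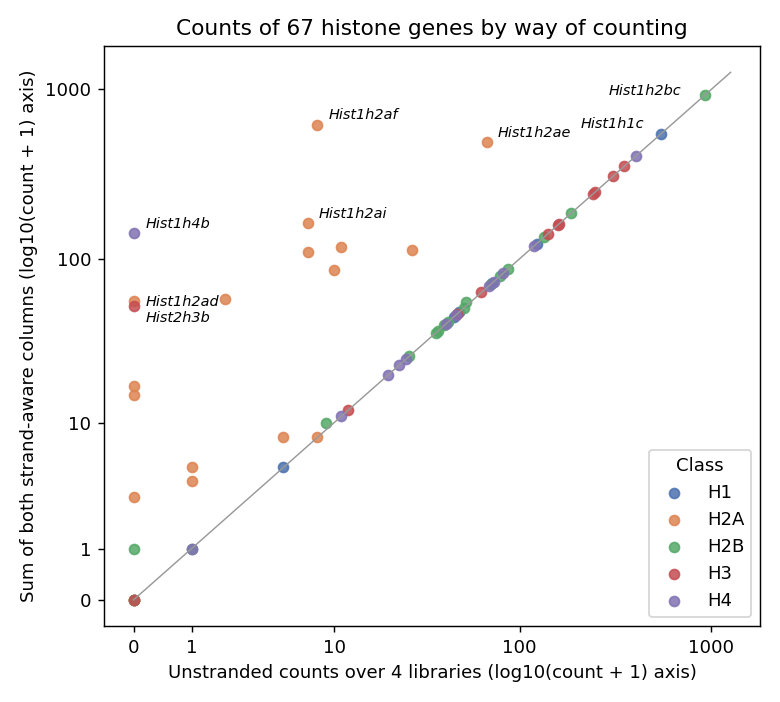
Each point is 1 of the 67 histone genes, coloured by class, with its unstranded count over the 4 libraries on the x axis and the sum of both strand-aware columns on the y axis (both as log10 of the count plus 1), and the line marks equal counts. The points above the line are mostly H2A genes, Hist1h2af having 8 unstranded counts and 620 in the sum.

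By this count H2A held 25.5% of the members' counts, next to 24.3% for H2B, 24.3% for H3, 14.4% for H4 and 11.5% for H1. The number of detected members was 30 in place of 20, of which 9 were H2A genes, 8 H3 and 5 H4, with H1 and H2B again at 2 and 6. Hist1h2af became the member with the highest level per kilobase of exon, with a mean of 15.9 CPM, ahead of Hist1h2bc (7.87 CPM), Hist1h3h (7.35 CPM) and Hist1h2ae (6.88 CPM). This order depends on the annotated length. Hist1h2af had 620 summed counts over 399 exon bases, and Hist1h2bc had 931 over 1156. Hist1h2af and Hist1h2ae together held 59.3% of the H2A counts. The other named H2A genes, Hist1h2ak and Hist1h2ab, stood at 2.99 and 2.36 CPM per kilobase. Hist1h2aa, Hist2h2ab and Hist2h2aa1 stayed at 3 counts or fewer over all libraries, and 5 members had no count. Hist2h2aa1 and Hist2h3c1, both without a count, are overlapped by Gm20634 on the same strand, so the sum leaves out the shared reads as well.

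**Figure D3:**
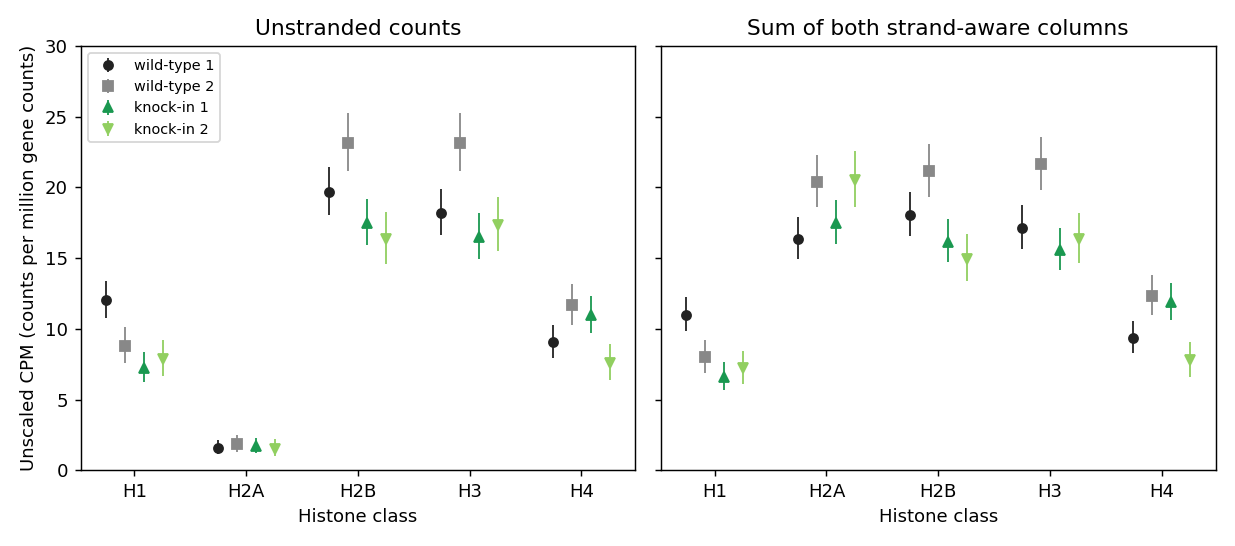
Unscaled CPM by histone class and library, with 95% exact binomial intervals (counting error only), for unstranded counts on the left and for the sum of both strand-aware columns on the right. H2A lies between 1.53 and 1.84 CPM on the left and between 16.4 and 20.5 on the right, in the range of H2B and H3 there, while H1 is higher in both wild-type libraries than in both knock-in libraries.

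Many members are near-identical copies of each other. Among members of equal coding length, the median identity of coding sequences was 96.4% for 15 H2A genes, 94.8% for 14 H2B genes, 97.6% for 11 H3 genes and 93.9% for 13 H4 genes, and 3 pairs were identical (2 in H2A and 1 in H4). The share of 50-base windows of a member's exons that occurred in no other gene's annotated transcripts was taken for each member. Non-member genes that overlap the member were left out of this comparison. The share had a median of 53.0%. By class the medians were 98.9% for H1, 27.0% for H2A, 56.0% for H2B, 42.8% for H3 and 60.5% for H4. With windows of 100 bases the median over all members was 67.2%. Hist2h2aa2 had no such window and Hist1h3h had 6.08%. In the strand-aware sum the median count over all libraries was 17 for the 15 members with a share under 20% and 87 for the 25 members from there to 60%, but 26 for the 27 members above, so the median did not rise steadily with the share. Levels of members with a low share are uncertain, since reads that fit several copies were set apart as multimapping (3.80% to 4.46% of all reads).

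In 12 places an H2A and an H2B gene start back to back on opposite strands, 175 to 305 bases apart (median 258.5). In the strand-aware sum the H2A gene had the higher level per kilobase in 8 of these pairs and the H2B gene in 4. In the 8 pairs with at least 10 summed counts in both genes the tally was 5 to 3. Annotated length enters both tallies. Hist2h2ac stood higher with 15 summed counts over 520 exon bases, against 36 over 2620 for Hist2h2be. Hist1h2ad and Hist1h2bf stood close together, at 0.97 and 1.14 CPM, and other pairs were far apart. Hist1h2ae had 6.88 CPM per kilobase and its partner Hist1h2bg 1.37 CPM, and Hist1h2ak had 2.99 CPM and its partner Hist1h2bn 0.28 CPM. For Hist1h2ak and Hist1h2bn, 47.7% and 13.6% of 50-base windows were found in no other gene's transcripts, overlapping non-member genes aside. The opposite order was most marked for Hist1h2bc, at 7.87 CPM, and Hist1h2ac, at 0.031 CPM, or 931 and 8 summed counts. Of the Hist1h2ac exons, 88.4% of 50-base windows were found in no other gene's transcripts, overlapping non-member genes aside. Of its 2482 exon bases, 2010 are annotated past the stem-loop, so this share and the level per kilobase describe mainly that stretch. These pairs were chosen by position alone, but the examples were named after their values were seen.

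**Figure D4:**
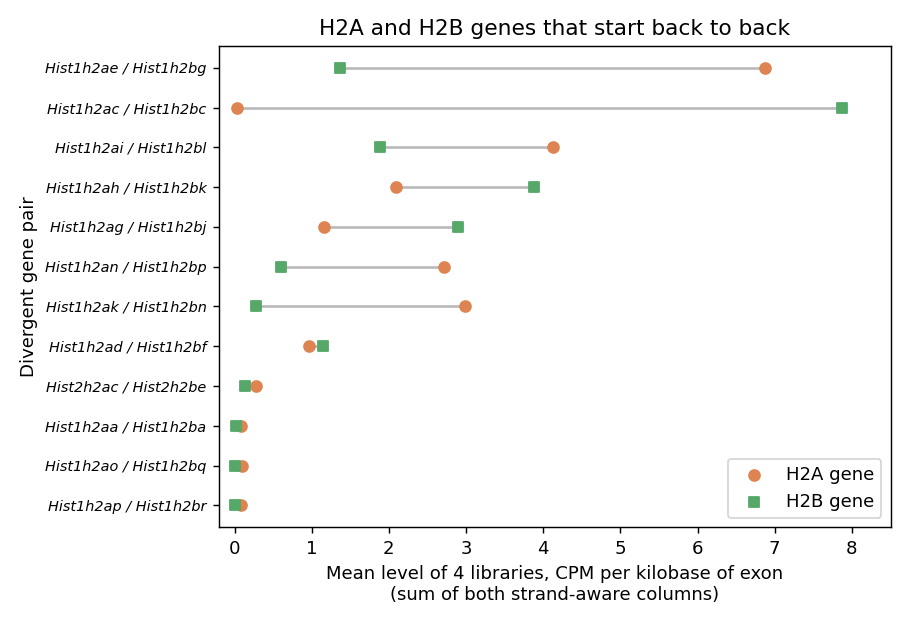
Mean level over the 4 libraries (CPM per kilobase of exon, from the sum of both strand-aware columns) of the H2A gene (circles) and the H2B gene (squares) of 12 divergent pairs, joined by a line. In the pair Hist1h2ac and Hist1h2bc the H2A gene is near 0 while the H2B gene is at 7.87 CPM, and in the pair Hist1h2ae and Hist1h2bg the order is the reverse.

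The DNA around the gap between Hist1h2ac and Hist1h2bc is shown because the 2 genes start from it in opposite directions at such different levels. It is the RefSeq sequence (GRCm38.p6) of the 250 bases before the RefSeq start of Hist1h2ac, chr13:23683960-23684209 on the minus strand, which differs slightly from the GENCODE start so that the stretch runs a few bases into Hist1h2bc and leaves out a few next to Hist1h2ac, and the capitals mark matches on either strand to the CCAAT box, to the TATA box spelled TATAAA, and to the octamer motif spelled ATTTGCAT.
Hist1h2ac promoter: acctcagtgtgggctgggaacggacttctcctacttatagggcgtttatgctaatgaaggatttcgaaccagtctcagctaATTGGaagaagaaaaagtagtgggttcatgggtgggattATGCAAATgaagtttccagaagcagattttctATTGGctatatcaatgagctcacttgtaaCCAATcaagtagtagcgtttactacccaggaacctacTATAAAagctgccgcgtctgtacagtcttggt

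Over the 62 members matched to a RefSeq promoter, CCAAT was found on either strand in 82.3%, against 33.8% of 32851 promoters of the same length. It was present in all H1, H2A and H2B promoters matched (6, 18 and 16) and in 3 of 12 H4 promoters. TATAAA was found in 46.8%, against 12.4% of all promoters. ATTTGCAT was found in 7 of 18 H2A and 6 of 16 H2B promoters and in none of the H1, H3 or H4 promoters, against 1.6% of all. These are matches of letters only, and paired genes share much of the stretch searched.

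The lines were then compared by edgeR's quasi-likelihood test on the unstranded counts of all genes. No member passed an adjusted p of 0.05 among the 33 that passed the low-count filter (5 H1, 1 H2A, 12 H2B, 9 H3 and 6 H4 genes). Over all 15191 genes tested, 10 passed (0.0658%), 1 higher and 9 lower in the knock-in line. In these bulk libraries fewer cells that make a histone mRNA and less of it per cell cannot be told apart. An unadjusted p under 0.05 was reached by 3 members and by 10.9% of all genes. DESeq2 and limma-voom also called no member, while passing 0.86% and 0.0263% of all genes. The members' counts were low for such a test: the median standard error of their log2 fold change was 0.48, against 0.21 over all genes tested. The edgeR test recovered 71% of 2-fold and 100% of 4-fold changes among 200 genes planted in simulated counts for this comparison (15136 genes tested). The planted genes were drawn from genes with higher expected counts than most tested members had, and a single spread was used for all genes. These shares therefore do not apply to most members.

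The 3 members were Hist1h1c, Hist3h2ba and Hist1h3d, the latter 2 named after their values were seen. The mean of Hist1h1c was 7.13 ± 1.36 CPM in the wild-type line and 4.49 ± 0.84 CPM in the knock-in line (n = 2 each, mean ± SD), with a log2 fold change of -0.68 (95% interval -1.26 to -0.091, SE 0.26, edgeR adjusted p = 0.431). Hist3h2ba, an H2B gene on chromosome 11, had 12 and 11 counts in wild-type and 2 and 1 in knock-in libraries, with a log2 fold change of -2.65 (edgeR adjusted p = 0.305, SE 0.76). Hist1h3d had 15 and 2 counts in wild-type and 27 and 19 in knock-in libraries, with a log2 fold change of 1.66 (edgeR adjusted p = 0.433, SE 0.64), the lowest and the next value (0.091 and 0.54 CPM) both being wild-type. Of the other members in the order of their classes, Hist1h2bk had a log2 fold change of 0.60 (SE 0.33), Hist1h2bj of -0.73 (SE 0.47), Hist1h2bc of -0.34 (SE 0.21), Hist1h3e of -0.75 (SE 0.34), Hist1h4h of 0.15 (SE 0.49) and Hist1h4i of 0.06 (SE 0.25). For Hist1h2bc the 95% interval was -0.81 to 0.13 and for Hist1h4i -0.51 to 0.63, so a change of 2-fold or more lay outside both.

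**Figure D5:**
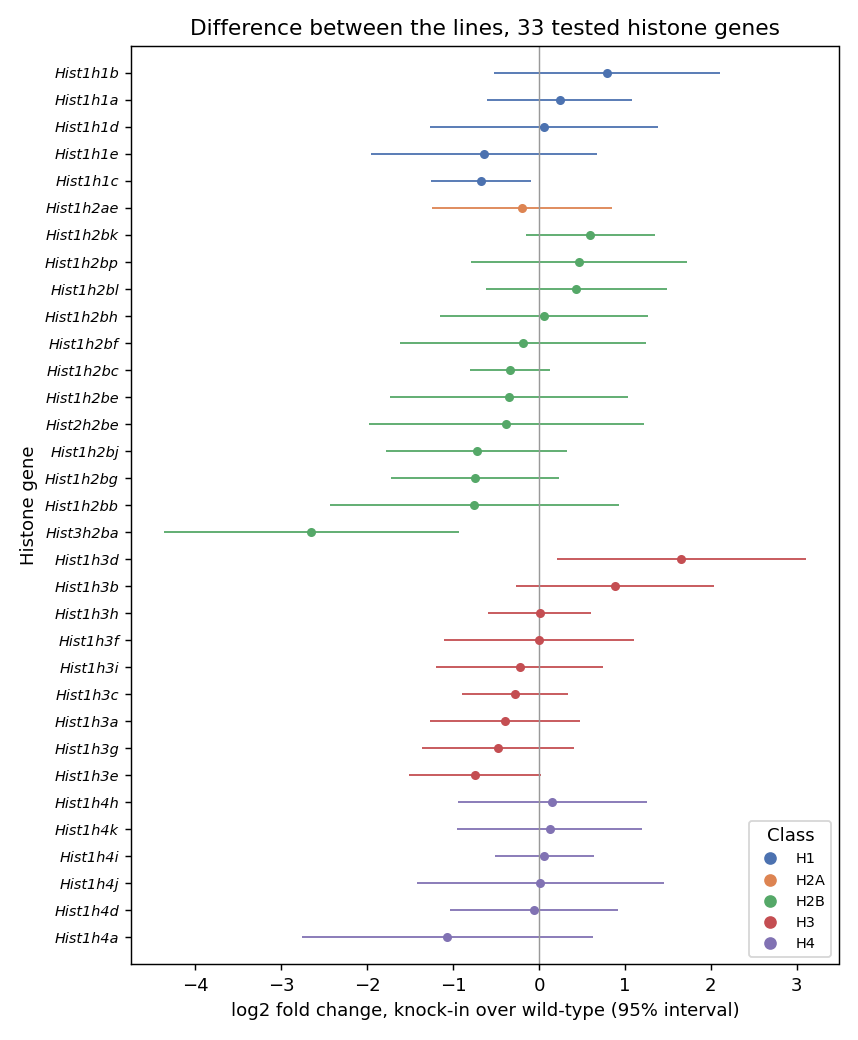
The log2 fold change (knock-in over wild-type) of the 33 tested histone genes with 95% intervals from the edgeR fit, coloured by class, the line marking 0. The intervals of Hist3h2ba, Hist1h1c and Hist1h3d leave out 0 before adjustment over 15191 genes, and no gene passes after it.

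Across the 33 tested members the median log2 fold change was -0.19, against 0.00098 over all genes tested, with 15 values above and 18 below 0. By class the medians were 0.056 (H1), -0.34 (H2B), -0.22 (H3) and 0.038 (H4), and the single H2A gene had -0.20. Both knock-in libraries were above both wild-type libraries for 5 members and below them for 5, against 23.4% and 23.9% of all genes tested. The 2 libraries of a line differed more than 2-fold for 6 members in wild-type and 5 in knock-in cells, against 5.04% and 3.32% of all genes. Low counts enter here, as for Hist1h3d with 15 and 2 counts in wild-type. These numbers therefore do not show that the members vary more than other genes of like counts. In the strand-aware sum 43 members were tested and none passed, against 14 of 16992 genes (0.0824%), and the median was -0.043. Within it the mean of Hist1h2af was 5.53 ± 1.21 CPM in the wild-type line and 7.13 ± 2.56 CPM in the knock-in line (n = 2 each, mean ± SD), with a log2 fold change of 0.36 (edgeR adjusted p = 0.637, SE 0.29), and Hist1h2ae had 0.13 (edgeR adjusted p = 0.844, SE 0.23).

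Summed by class, H1 counts were 12.0 and 8.77 unscaled CPM in wild-type and 7.24 and 7.86 in knock-in libraries. H2B counts were 19.7 and 23.1 against 17.5 and 16.4, and H3 counts 18.2 and 23.1 against 16.5 and 17.3. In each of these 3 classes both knock-in libraries were lower in these unscaled values. H4 counts were 9.04 and 11.7 against 11.0 and 7.60, and the lines overlapped. The TMM factors were 1.04 and 1.01 in wild-type and 0.965 and 0.987 in knock-in libraries, so scaling narrows these gaps. In the first strand-aware column alone H3 overlapped, with 16.9 CPM in wild-type 1 and 17.6 in knock-in 1. In the second, H3 had 17.4 in wild-type 1 and 18.1 in knock-in 2. H1 overlapped there too, with 6.46 in wild-type 2 and 6.77 and 7.12 in knock-in libraries. Hist1h1c held 549 of the 842 H1 counts, and without it H1 stood at 3.62 and 2.52 CPM in wild-type and 3.48 and 2.85 in knock-in libraries, which overlapped. No test was made of sums over the members. Summed markers of 5 other cell types were read beside these values. Of these, 10 fibroblast and feeder genes summed to 106 to 122 CPM in wild-type and 76.3 to 83.9 CPM in knock-in libraries. Lum was at 0. Fbln1 held most of each sum, with 67.8 and 81.6 against 52.6 and 57.7 CPM. Of the 6 tested, only Pdgfra had a positive log2 fold change (0.15), and the median was -0.71. The 9 primitive endoderm genes summed to 16.2 to 16.3 CPM in wild-type and at most 11.5 CPM in knock-in libraries. Afp was at 0. Amn and Hnf4a had log2 fold changes of -1.30 and -0.98, and Dab2 had -0.10. Gata4 alone of the 6 tested was positive (0.22), and the median was -0.37. The 8 trophoblast genes summed to 53.5 and 54.2 CPM in wild-type and to 63.8 and 61.7 CPM in knock-in libraries. None was at 0 in all libraries, but Elf5 was at 0 in both knock-in libraries. Tfap2c held most of each sum, with 34.1 and 34.9 CPM in wild-type and 47.4 and 44.7 CPM in knock-in libraries. Eomes went the other way, with a log2 fold change of -0.49. Of the 5 trophoblast genes tested, 3 had a positive log2 fold change, and the median was 0.012. The higher sum therefore does not describe the trophoblast list as a whole. The 7 neuroectoderm genes (149 and 235 against 162 and 149 CPM) overlapped, and 7 mesoderm genes had 3.85 and 4.31 CPM in wild-type and 3.49 and 2.89 CPM in knock-in libraries, with Hand2 at 0. The 10 pluripotency genes summed to 6674 to 6704 CPM in wild-type and 6896 to 7286 CPM in knock-in libraries. The part of these values in the histone values was not tested.

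Leaving out wild-type 1 or wild-type 2 changed the calls. Without wild-type 1, 3 members passed, Hist1h2bj and Hist1h3e lower and Hist1h3d higher, while 32.1% of all genes passed. Without wild-type 2, Hist1h1c passed (log2 fold change -0.88, edgeR adjusted p = 0.0071), as did 4.39% of all genes. In the strand-aware sum without wild-type 1, 4 members passed, the same 3 and Hist1h3g (lower), against 31.9% of all genes. With the libraries paired across their numbers (knock-in 1 with wild-type 2), Hist1h3d alone passed, against 3.35% of all genes. A fit that corrected for the GC content of transcripts gave 295 genes (1.94%) and no member past the threshold, a median of -0.041 over the members and a log2 fold change of -0.49 for Hist1h1c. The transcripts of the 33 tested members had a median GC content of 55.2%, against 50.4% over all genes tested. In that fit without wild-type 1, Hist1h2bk and Hist1h3d passed as higher and Hist1h2bc as lower (1.26, 3.48 and -0.66), against 8.42% of all genes, and without wild-type 2 Hist1h1c passed (-0.73, edgeR adjusted p = 0.0437), against 4.02%. The value of Hist1h1c without wild-type 1 was -0.47 (edgeR adjusted p = 0.154), and -0.19 with the GC correction as well (edgeR adjusted p = 0.736).

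The genes that make, carry or turn over histone mRNA and protein were taken from lists. None of their members passed the edgeR test in either direction, against 0.0658% of all genes tested, so a list of this size would rarely hold 1. An unadjusted p under 0.05 was reached by 3 of 75, against 10.9% of all genes. DESeq2 and limma-voom called none, against 0.86% and 0.0263% of all genes. Tested were 16 of 17 genes of 3′ end processing and 8 of 8 of histone mRNA translation and decay. Next came 8 of 8 transcription regulators of histone genes and 14 of 14 chaperones and importers. The last lists gave 11 of 11 replication-independent variants and 18 of 18 S-phase genes. The lists' median log2 fold changes were 0.13, 0.059, 0.20, 0.18, -0.037 and 0.093 in that order. Slbp had 107 and 59.4 CPM in the wild-type and 118 and 111 CPM in the knock-in libraries, so that wild-type 2 stood apart from the other 3, and a log2 fold change of 0.46 (edgeR adjusted p = 0.490, SE 0.24). Npat had 58.3 and 33.8 against 56.7 and 59.0 CPM, again with wild-type 2 the lowest, and a log2 fold change of 0.33 (edgeR adjusted p = 0.598, SE 0.24). Ep300, the gene that carries the tag, had 209, 210, 181 and 210 CPM and differed by -0.10 (SE 0.15) on the log2 scale.

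Of the named chaperones, Nasp, which holds H1, H3 and H4 before they reach DNA, had a log2 fold change of 0.56 (edgeR adjusted p = 0.382, SE 0.19), from 871 and 593 CPM in wild-type and 1088 and 1073 CPM in knock-in libraries. Without wild-type 1, Slbp, Npat, Nasp and Nap1l1 passed with log2 fold changes of 0.95, 0.77, 0.87 and 0.75, in the fit where 32.1% of all genes did. Without wild-type 2 the values were 0.090, -0.025, 0.30 and 0.16, and none of the 4 passed. With the GC correction and without wild-type 1, Slbp alone of the 4 passed, at 0.80, and Npat had 0.096. The nucleosome assembly gene Nap1l1 had 0.43 (edgeR adjusted p = 0.459, SE 0.20). The helicase subunits Mcm2 and Mcm7, which open DNA for replication, had -0.025 (SE 0.17) and 0.097 (SE 0.15). Values for the other named genes were 0.20 for the cyclin gene Ccne1, 0.10 for Yy1, -0.066 for Snrpb, 0.042 for Srrt, -0.0027 for Upf1, -0.13 for Ddx19b, -0.013 for H2afz and 0.047 for H3f3b, with edgeR adjusted p values from 0.597 to 0.996.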

How the data were processed

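RNA sequencing reads were counted per gene by the authors with STAR, and the deposited tables hold raw counts per gene in an unstranded and 2 strand-aware columns. Trim Galore, STAR 2.5.3a and the build GRCm38 (mm10) are named in the submitters' processing notes. The release of the gene annotation is not given in the sources used here. Per the labels, the 2 libraries of each line are biological replicates.

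The unstranded counts of all genes were tested with edgeR 4.0.16 in R 4.3.3 (genotype alone, TMM scaling, filterByExpr, quasi-likelihood F test, Benjamini-Hochberg adjustment, threshold 0.05). Each standard error is the size of the log2 value over the root of its F statistic. The procedure was tested on simulated data, in which 1 of 172 calls was false. CPM are TMM-scaled, and exon lengths, symbols and overlaps come from GENCODE M21, to which 54809 of 54838 identifiers matched. Rows that name no gene were left out of library sizes, with 5.96% to 6.38% of reads ambiguous between genes and 2.23% to 3.67% outside features. Other settings were DESeq2 size factors, DESeq2 1.42.0, limma-voom (limma 3.58.1), 2 other filters, each library left out, the replicate number as a block, each strand-aware column, and a GC (and length) offset from natural splines with 5 degrees of freedom. After the data were seen the sum of the strand-aware columns and a pairing of unlike replicate numbers (crossed) were added. Windows were compared with annotated transcripts in place of the genome, as the design had it.

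The genes named with values were members past the threshold, the 3 highest per class by unstranded level per kilobase, the largest fold change per class at a mean of at least 1 CPM, members without a count, 2 genes per list with the highest CPM, and Slbp, Npat and Ep300. Others are marked as named after their values were seen. The members and lists were chosen with earlier results of these data known.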

Additional observations from a re-analysis of the deposited data

How the results depend on the processing

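No member passed the threshold in the fits that kept all 4 libraries, except Hist1h3d under the crossed pairing (1 member, log2 fold change 1.79). With a library left out, 0 to 4 members passed, and the median log2 fold change over the members ran from -0.50 to 0.17. It was 0.054 in the second strand-aware column alone. Over all genes, in place of 10, the number past the threshold was 354 without a low-count filter, 123 by DESeq2, 4 by limma-voom, 197 with the replicate block, 509 with the crossed pairing, 295 with the GC offset, 352 with GC and length, 429 with GC and the replicate block, 244 with GC in the strand-aware sum, and 16 to 5570 with a library left out. A library left out leaves 1 in its group, which is assumed to vary like the pair. Same-numbered libraries deviated with r = -0.12 across 15191 genes. With 2 libraries in each line this value cannot decide whether the numbers pair the libraries. The block moved no member past the threshold.

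With at least 1 count in each library 44 members were detected (5 H1, 6 H2A, 13 H2B, 9 H3 and 11 H4), with at least 1 CPM 12 (2 H1, 0 H2A, 3 H2B, 6 H3 and 1 H4), and in the strand-aware sum 9 H2A. The members' unscaled CPM in wild-type 1 and 2 and knock-in 1 and 2 were 69.0, 84.9, 67.6 and 65.8 in the first strand-aware column, 74.9, 82.1, 67.9 and 67.7 in the second, and 71.9, 83.5, 67.7 and 66.8 in their sum.

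Among named genes none of which passed in the fit reported, these log2 fold changes changed sign. In the strand-aware columns Hist1h1a had -0.21 and Hist1h4h -0.64 in the first, Hist1h2ae 0.19 in the first and 0.067 in the second, and Hist1h3c 0.043, Hist1h3h -0.12, Hist1h4i -0.097 and Srrt -0.0069 in the second. In their sum Hist1h2ae had 0.13 (0.33 with GC) and Hist1h3h -0.012. Hist1h3h had -0.012 without a filter and -0.018 with the stricter one. With the GC offset, GC and length, GC and the replicate block, and GC in the strand-aware sum, the values were 0.100, 0.090, 0.12 and 0.091 for H2afz, -0.0030, -0.019, -0.0047 and -0.0024 for H3f3b, 0.18, 0.20, 0.19 and 0.18 for Mcm2, 0.16, 0.15, 0.17 and 0.15 for Snrpb, and 0.24, 0.25, 0.24 and 0.23 for Upf1, and Ep300 had 0.00044 with GC and length. H2afz and Upf1 had 0.012 and 0.0041 with the crossed pairing, 0.014 and 0.0053 by limma-voom, and 0.012 and 0.0043 with the replicate block, and Upf1 had 0.0025 with DESeq2 size factors and by DESeq2.

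With a library left out, with or without the GC offset or the strand-aware sum, the ranges of those that changed sign were -0.21 to 0.034 for Ep300, -0.26 to 0.42 for H2afz, -0.10 to 0.13 for H3f3b, -0.53 to 0.24 for Hist1h2ae, -1.24 to 0.14 for Hist1h2bj, -0.49 to 0.13 for Hist1h3c, -1.06 to 0.18 for Hist1h3g, -0.14 to 0.40 for Hist1h3h, -0.52 to 0.82 for Hist1h4h, -0.084 to 0.36 for Hist1h4i, -0.37 to 0.69 for Hist1h4k, -0.23 to 0.35 for Mcm2, -0.027 to 0.78 for Npat, -0.34 to 0.41 for Snrpb, -0.065 to 0.30 for Srrt and -0.14 to 0.28 for Upf1. The cause was not tested. At this depth 20 of 67 members had 10 or more counts in each library.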
